A study of Mus musculus with 6 samples.

Results

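The genes described here include those of enzymes that remove peroxides and superoxide in the mouse heart and that supply glutathione and thioredoxin. Glutathione S-transferases, thioredoxin-domain and thioredoxin-like proteins, and the regulators NRF2 (Nfe2l2) and KEAP1 are also among these genes. They were chosen by symbol. The rule uses no measured value, but it was written with earlier results of these data known. The set held every protein-coding gene whose symbol begins with Gpx, Prdx, Txn, Sod or Mgst, or with Gst followed by a, k, m, o, p, t or z. It also held Gclc, Gclm, Gss, Gsr, Cat, Nqo1, Srxn1, Nfe2l2, Keap1, G6pdx and Pgd. This gave 72 of the 54532 genes in the count table, called members below. RNA of whole hearts from 3-month-old male mice was sequenced, with 3 α1r/rα2s/s hearts (mice 368, 369 and 370) and 3 α1s/sα2s/s hearts (mice 379, 380 and 381). The α1s/sα2s/s mice carry substitutions in the Na/K-ATPase α1 isoform that raise its affinity for cardiotonic steroids such as ouabain. The control mice keep the naturally resistant rodent α1. The paper's methods call the controls littermates, whereas it calls those sequenced age-matched, and the labels give no litter. Both genotypes have the sensitive α2 isoform and the C57BL/6 background, and no treatment was given to these hearts. The substitutions are in every tissue and not in the heart muscle alone. Counts per gene do not show the substituted bases, so the genotype rests on the labels. Below, α1r/rα2s/s hearts are also called resistant and α1s/sα2s/s hearts sensitive.

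Superoxide made by mitochondria and oxidases is turned into hydrogen peroxide by superoxide dismutases, and the peroxide is then removed by catalase, glutathione peroxidases and peroxiredoxins. Glutathione peroxidases draw on glutathione and most peroxiredoxins on thioredoxin, and both are returned to the reduced state with electrons from NADPH. Glutathione S-transferases join glutathione to reactive compounds such as lipid aldehydes. The transcription factor NRF2, which KEAP1 holds at a low level in unstressed cells, pairs with small MAF proteins on antioxidant response elements in front of many of these genes.

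In these hearts 2 members differed between genotypes by edgeR, and both were higher in the sensitive hearts. Gclm, the modifier subunit of the enzyme that makes the precursor of glutathione, was 1.68-fold higher (95% interval 1.46 to 1.93, n = 3 hearts per genotype). Cat, the catalase gene, was 1.27-fold higher (95% interval 1.15 to 1.4, n = 3 hearts per genotype). The other 59 members tested did not pass by edgeR, although DESeq2 also called Sod1 and Gsto1. Among those called by neither tool were the catalytic partner Gclc, the common NRF2 target Nqo1, and Nfe2l2 and Keap1.

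The sequences in front of these genes are shown because Gclm is a known NRF2 target and NRF2 binds short elements in front of its targets; Cat is the other called member. The core of the antioxidant response element, TGACNNNGC, was searched on both strands in the 250 bases upstream of each RefSeq start (GRCm38.p6), with the match in capitals and the rest in lower case. Upstream of Gclm (chr3:122245307-122245556, plus strand) there was 1 match, on the opposite strand, so the capitals show the reverse complement of the core. The left end of this match as printed lay 134 bases before the start. Upstream of Cat (chr2:103485154-103485403, minus strand) there was 0. Prdx1, a cytosolic peroxiredoxin gene, is shown as a member with a match whose level did not pass the test (chr4:116685349-116685598, plus strand). Its match was also on the opposite strand, with the left end 133 bases before the start. These letters can also hold the AP-1 site TGACTCA, as the Prdx1 match did.
Gclm upstream: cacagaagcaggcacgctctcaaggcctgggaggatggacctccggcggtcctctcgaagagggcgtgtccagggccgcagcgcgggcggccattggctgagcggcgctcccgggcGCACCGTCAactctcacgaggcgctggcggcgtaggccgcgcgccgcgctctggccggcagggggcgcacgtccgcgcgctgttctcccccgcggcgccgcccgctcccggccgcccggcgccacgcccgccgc
Cat upstream: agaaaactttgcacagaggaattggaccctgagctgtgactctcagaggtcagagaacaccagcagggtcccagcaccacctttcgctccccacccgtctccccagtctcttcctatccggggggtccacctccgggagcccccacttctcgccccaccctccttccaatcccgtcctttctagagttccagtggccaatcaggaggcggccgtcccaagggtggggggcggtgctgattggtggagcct
Prdx1 upstream: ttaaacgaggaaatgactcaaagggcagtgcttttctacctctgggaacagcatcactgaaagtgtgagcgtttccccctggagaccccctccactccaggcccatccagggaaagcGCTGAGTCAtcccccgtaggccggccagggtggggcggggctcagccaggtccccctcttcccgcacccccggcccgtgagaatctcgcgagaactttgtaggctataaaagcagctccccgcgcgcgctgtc

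The core was in 3338 of all 32851 RefSeq upstream windows (10.2%). Of the members, 63 of 72 were matched to RefSeq by symbol, with 82 windows, and 13 of these held the core (15.9%). The 13 genes were G6pdx, Gclm, Gsta3, Gstm5, Gstm7, Mgst1, Nfe2l2, Prdx1, Sod1, Txndc11, Txndc2, Txndc5 and Txnrd1. A match is a stretch of letters and not a site at which binding was measured. The search covered only these 250 bases, so a gene without a match can hold the core elsewhere.

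Each library held 19309312 to 20470065 counts, and members took 0.475% to 0.528% of them in the resistant hearts and 0.505% to 0.519% in the sensitive hearts. The share of counts on mitochondrially encoded genes was 23.4% to 24.4% in resistant and 25% to 26% in sensitive hearts. Levels are given as CPM, the counts of a gene per 1000000 counts on the genes tested in a library, after scaling by edgeR's TMM factors. These factors were 0.9885 to 1.064 in the resistant and 0.945 to 0.9858 in the sensitive hearts. Cardiomyocyte markers dominated all hearts, at a summed 49740 to 60940 CPM in the resistant and 54670 to 59860 CPM in the sensitive hearts. No gene of 10 marker lists passed the adjusted threshold by edgeR, while DESeq2 called 2 macrophage, 1 fibroblast, 1 atrial and 1 smooth muscle marker. The 4 atrial and 6 smooth muscle and pericyte markers all lay at or below 0, as did the 6 macrophage and 3 lymphocyte markers tested. All 6 erythroid and 3 adipocyte markers tested lay above 0. In bulk tissue, fewer cells of a type and less RNA per cell cannot be told apart.

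Of the 72 members, 61 had enough counts to be tested. Gpx2, Gpx5, Gpx6, Prdx6b, Txndc8 and Gstt4 had no count in any heart, for which 3 counts is the limit that a count of 0 allows in each library. Gsta2, Gstm3, Gstp3, Mgst2 and Txndc2 were too low to test, at 0 to 9 counts per heart. At an adjusted p under 0.05 (quasi-likelihood F test of edgeR, Benjamini-Hochberg over 14866 genes), 2 of 61 members were higher and 0 were lower in the sensitive hearts. Of all genes tested, 1.44% passed, with 0.780% higher and 0.659% lower. The same 0 lower members compare with 3 at an unadjusted p under 0.05 and 0 by DESeq2. At an unadjusted p under 0.05, 10 members were higher and 3 lower, against 14.5% of all genes (7.19% higher and 7.27% lower). The CPM of the 3 sensitive hearts lay wholly above those of the 3 resistant hearts in 11 members and wholly below in 4, against 10% and 9.98% of all genes. DESeq2, the tool of the study, called 4 members (Cat, Gclm, Gsto1 and Sod1), against 3.65% of the genes to which it gave an adjusted p.

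The median log2 fold change (sensitive over resistant) of the 61 members was 0.06, against -0.008 for all genes tested, and 43 members (70.5%) lay above 0, against 48.4% of all genes. This count depended on the scaling. With counts scaled only to the total over the genes tested (total count scaling), 26 of the 61 members lay above 0 and the median of all genes was -0.091. The difference between the members' median and that of all genes was 0.068 under both scalings. The summed level of all members was 5101, 4860 and 4809 CPM in the resistant hearts (mice 368, 369 and 370) and 5279, 5130 and 5440 CPM in the sensitive hearts (mice 379, 380 and 381). These sums did not overlap, whereas the shares of total counts given above did. The sums over all genes tested did not overlap either, at 940200 to 1012000 CPM in the resistant and 1014000 to 1058000 CPM in the sensitive hearts. The members' sums are therefore not a trait of the members alone. The plot of fold changes by role shows the members' intervals.

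**Figure D1:**
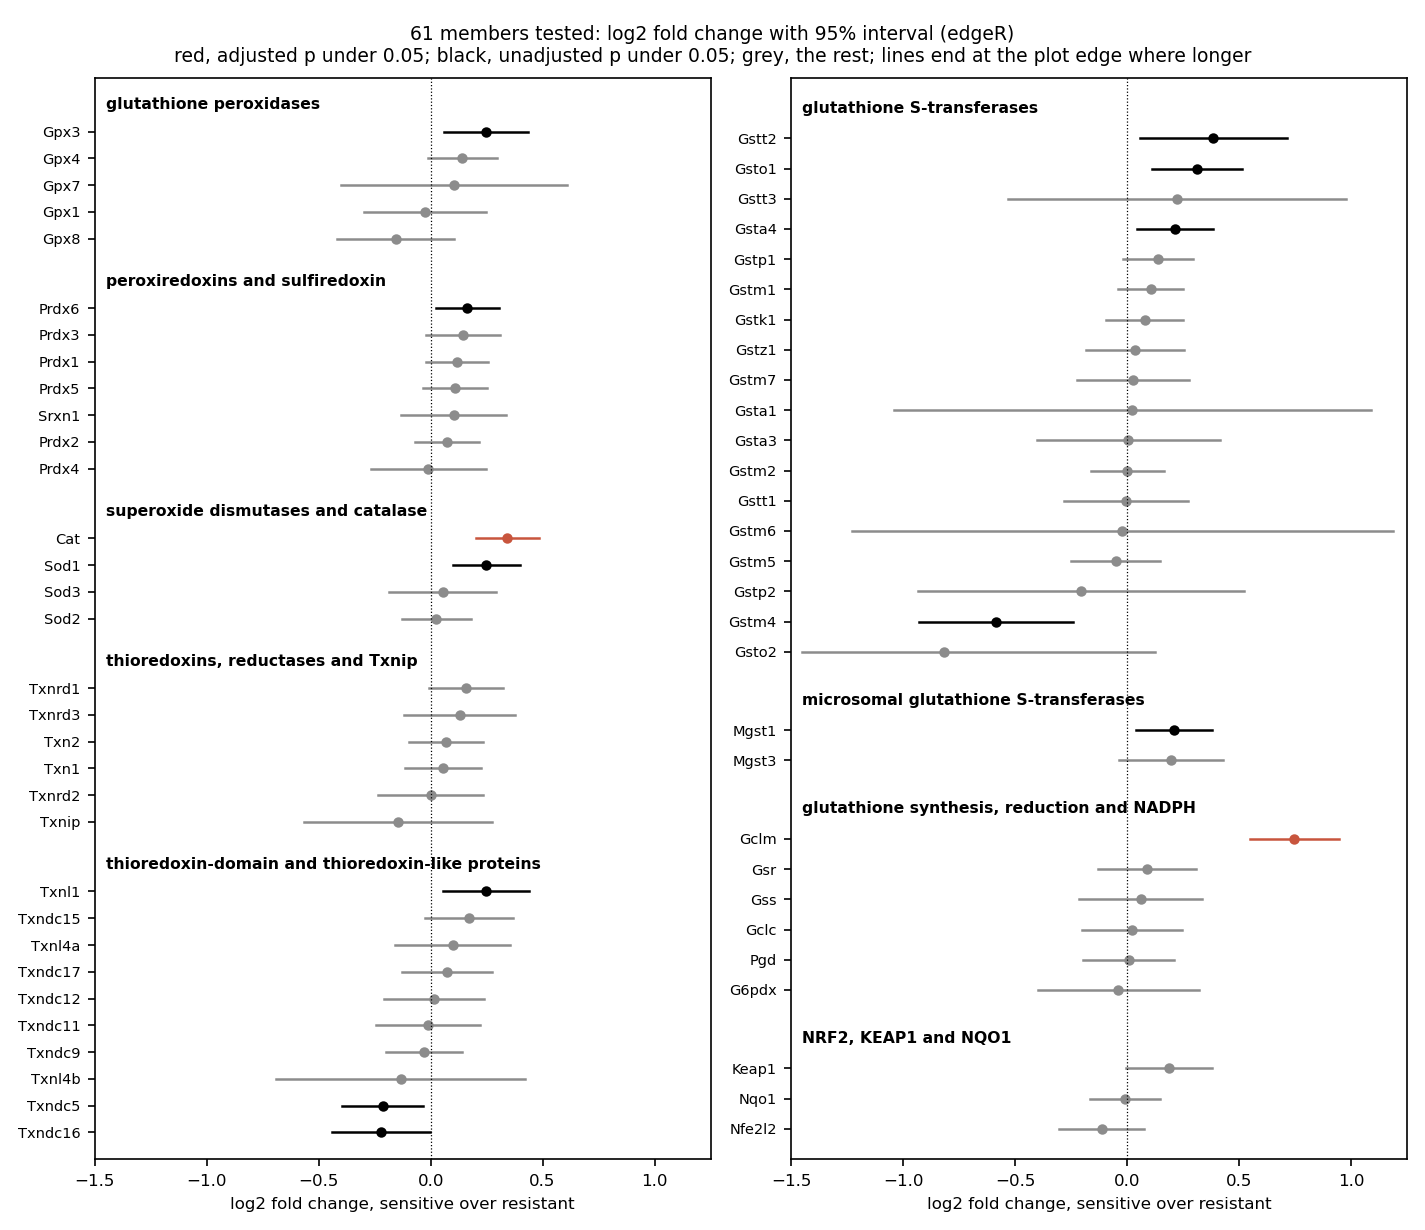
Log2 fold change (x axis, sensitive over resistant, 3 hearts each) of the 61 members tested, each a point with its 95% interval, grouped by role. Gclm at 0.75 and Cat at 0.34 are the 2 members with an adjusted p under 0.05, and 43 points lie to the right of 0.

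Glutathione is made in 2 steps, by the glutamate-cysteine ligase of GCLC and GCLM and then by glutathione synthetase. Gclm (ENSMUSG00000028124, chr3:122245557-122270732, plus strand) was at 32.4, 27.8 and 27.6 CPM in the resistant hearts and at 45.6, 48.8 and 53.1 CPM in the sensitive hearts. Each sensitive heart was above every resistant heart. The means were 29.3 ± 2.72 and 49.2 ± 3.78 CPM (SD, n = 3), and the log2 fold change was 0.75 (SE 0.093, adjusted p = 0.00112). Leaving out any 1 of the 6 hearts did not end the call of Gclm (6 of 6 fits). Of its exonic bases, 4.7% lie in other genes, the antisense gene Gm17494 with 6 to 16 counts per heart and Gm6061 on the same strand with 0, against 550 to 1024 counts for Gclm. Of its 100-base windows, 2.4% also occur in transcripts of Gm6061, Gm13493 or Ppia.

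Gclc, the catalytic subunit, was at 19.6, 18.4 and 20.1 CPM in the resistant and 19.5, 17.9 and 21.6 CPM in the sensitive hearts, so the genotypes overlapped. Its log2 fold change was 0.02, with a 95% interval from -0.2 to 0.25 that lies below the interval of Gclm (0.55 to 0.95). Per base of gene length, the ratio of Gclm to Gclc counts was 0.991, 0.903 and 0.823 in the resistant and 1.4, 1.63 and 1.47 in the sensitive hearts (0.906 ± 0.0842 and 1.5 ± 0.118, SD, n = 3, exact two-sided permutation p = 0.1, the smallest that 3 against 3 allows). By this measure the 2 transcripts were at like levels in the resistant hearts, and Gclm was the higher in every sensitive heart. The size of the ratio rests on the deposited gene lengths, whereas its fold between genotypes does not. This ratio does not depend on the scaling between libraries, and was chosen after the values were seen.

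The remaining genes of the branch did not pass. Gss, glutathione synthetase, had a log2 fold change of 0.06 (95% interval -0.215 to 0.335). Gsr, which reduces oxidized glutathione, was at 22.5, 19.4 and 22.8 CPM in the resistant and 23.7, 21.1 and 24 CPM in the sensitive hearts (log2 fold change 0.09, 95% interval -0.132 to 0.306). G6pdx and Pgd, which make NADPH in the pentose phosphate pathway, had log2 fold changes of -0.04 (95% interval -0.398 to 0.321) and 0.01 (95% interval -0.196 to 0.209). Gss was at 11.4 to 15 CPM and G6pdx at 6.21 to 8.36 CPM over the 6 hearts. Of their exonic bases, 15.4% (Gss) and 13.6% (G6pdx) lie antisense to other genes.

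Catalase and the superoxide dismutases were 4 members, all tested. Cat (ENSMUSG00000027187, chr2:103453849-103485160, minus strand) breaks down hydrogen peroxide, mostly in peroxisomes, and was at 204, 206 and 206 CPM in the resistant hearts and at 263, 249 and 269 CPM in the sensitive hearts. The genotypes were apart, with the lowest sensitive heart well above the highest resistant one. The means were 205 ± 1.1 and 261 ± 10.5 CPM (SD, n = 3), and the log2 fold change was 0.34 (SE 0.066, adjusted p = 0.0205). The SD of the resistant hearts was below the 3.16 CPM that counting error alone would give, and 13 of 61 members had such an SD in the resistant hearts. When 1 heart was left out at a time, Cat passed in 2 of 6 fits. The adjusted p was 0.0969 without mouse 368, 0.0527 without mouse 369, 0.0659 without mouse 379 and 0.0593 without mouse 381, with a log2 fold change from 0.32 to 0.38 over the 6 fits. With total count scaling its log2 fold change was 0.26 and its adjusted p 0.0553. No other gene overlaps the exons of Cat.

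Sod1, the cytosolic superoxide dismutase, was at 153, 143 and 159 CPM in the resistant and 180, 173 and 188 CPM in the sensitive hearts. The genotypes did not overlap, the log2 fold change was 0.25 (SE 0.07), and the adjusted p was 0.103 by edgeR and 0.0169 by DESeq2. Sod2, the mitochondrial enzyme, was at 592, 527 and 579 CPM in the resistant and 566, 557 and 606 CPM in the sensitive hearts, which overlapped (log2 fold change 0.03, 95% interval -0.129 to 0.181). Of the 100-base windows of Sod2, 12.8% also occur in transcripts of Rps6ka2 or AC166110.4. The ratio of Sod1 to Sod2 per base of gene length was 0.677 ± 0.0207 in the resistant and 0.789 ± 0.012 in the sensitive hearts (SD, n = 3, exact two-sided permutation p = 0.1, the smallest possible). Like that of Gclm to Gclc, this ratio was not planned. Sod3, the extracellular enzyme, was at 22.9 to 31.9 CPM with overlapping genotypes.

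**Figure D2:**
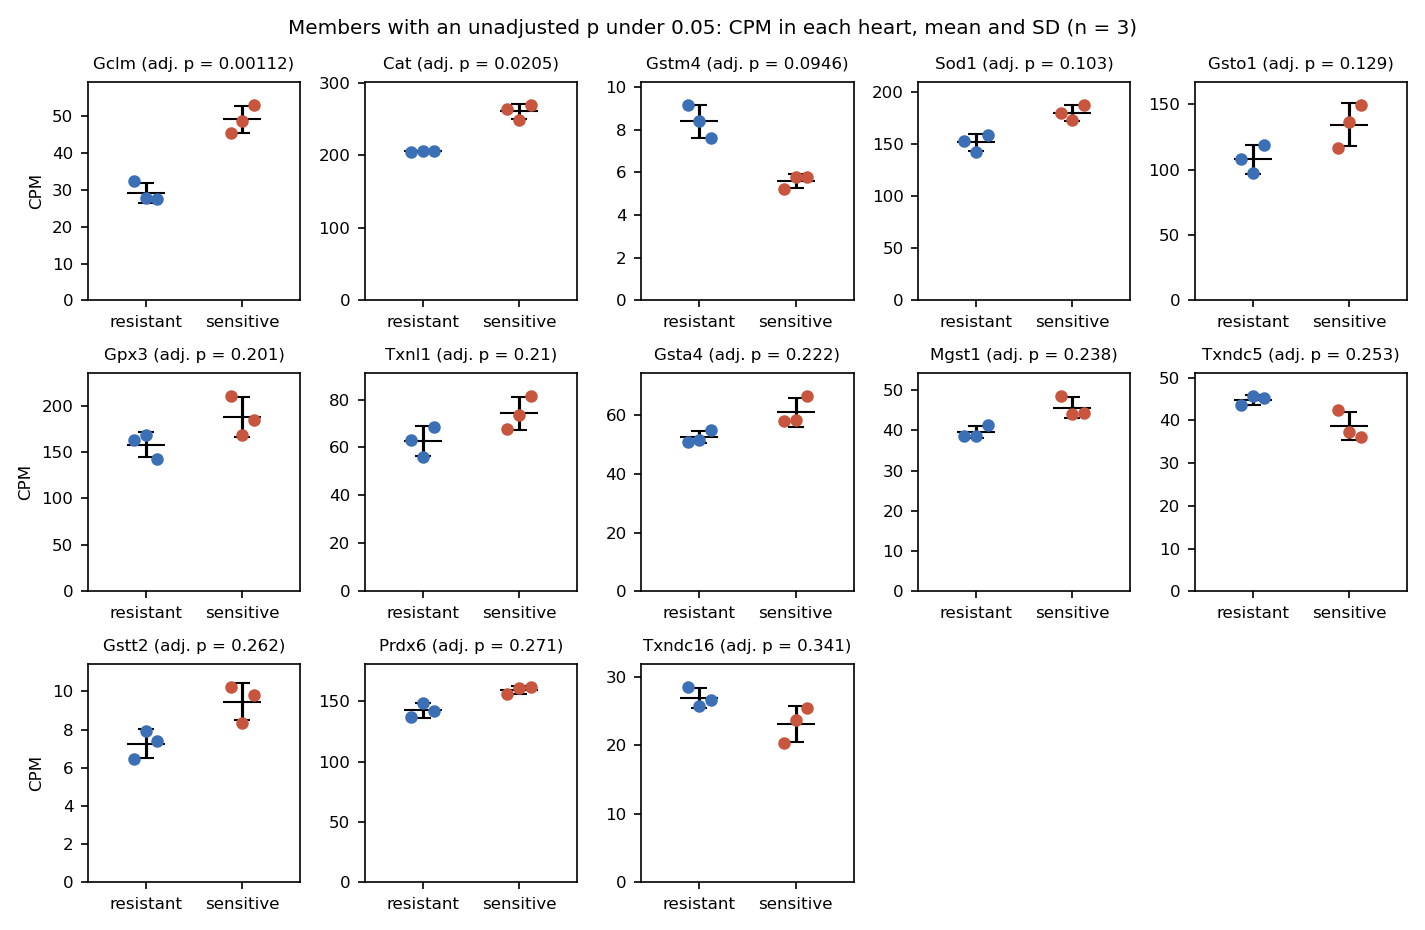
CPM (y axis, from 0) of the 13 members with an unadjusted p under 0.05 in each heart, with 1 point per heart and the mean and SD of the 3 hearts of a genotype in black. Gclm and Cat are clearly apart between genotypes, while the hearts of Gsto1 (97.2 to 119 CPM resistant, 117 to 150 CPM sensitive) and Gpx3 overlap.

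Glutathione peroxidases reduce peroxides with glutathione, and 5 of 8 were tested, with 0 past the adjusted threshold, 1 at an unadjusted p under 0.05 and 0 called by DESeq2. Gpx4, which reduces lipid peroxides within membranes, had the highest level of all members per length, at 286 CPM per kb (260 to 324 over the hearts). Its log2 fold change was 0.14 (95% interval -0.014 to 0.298), and 25.2% of its 100-base windows also occur in the pseudogene Gpx4-ps2, so its counts are uncertain. Gpx3, the secreted plasma form, was at 162, 169 and 143 CPM in the resistant and 210, 168 and 185 CPM in the sensitive hearts (log2 fold change 0.25, SE 0.089, adjusted p = 0.201).

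Gpx1, the main cytosolic form, which red cells also carry, was at 59.6, 73.8 and 49.8 CPM in the resistant and 55.4, 70.5 and 54.1 CPM in the sensitive hearts. Mice 369 and 380 were the highest of their genotype. These mice also had the highest summed level of the 7 erythroid markers in their genotype (globins and others; 6 of 7 tested), at 1275 and 3191 CPM against 537 to 955 CPM in the other resistant and 401 to 797 CPM in the other sensitive hearts. The part of red cell RNA in the Gpx1 level was not tested.

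Peroxiredoxins reduce peroxides with a cysteine and are recharged mainly by thioredoxin. Of 8 peroxiredoxin and sulfiredoxin genes, 7 were tested, 0 passed the adjusted threshold by edgeR or DESeq2, and 1 was at an unadjusted p under 0.05. Prdx6 was at 137, 149 and 142 CPM in the resistant and 156, 161 and 162 CPM in the sensitive hearts, without overlap (log2 fold change 0.16, SE 0.067, adjusted p = 0.271). Prdx1 (243 to 249 CPM resistant, 261 to 276 CPM sensitive) and Prdx5 (239 to 255 CPM resistant, 264 to 276 CPM sensitive) also did not overlap, with log2 fold changes of 0.12 and 0.11. Of the exonic bases of Prdx5, 19.1% lie antisense to Trmt112.

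Prdx3, the mitochondrial peroxiredoxin, had the second highest level of all members, at 181 CPM per kb (160 to 202), and its genotypes overlapped (log2 fold change 0.14, 95% interval -0.023 to 0.31). Srxn1, the sulfiredoxin that restores overoxidized peroxiredoxins and a common NRF2 target, had a log2 fold change of 0.10 (95% interval -0.132 to 0.338). Its hearts ranged from 18.5 to 22.5 CPM in the resistant and 20.5 to 24.5 CPM in the sensitive group.

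Of the 6 thioredoxin, thioredoxin reductase and Txnip genes, all tested, 0 passed the adjusted threshold by edgeR or DESeq2 and 0 were at an unadjusted p under 0.05. Txnip, which binds and inhibits thioredoxin and follows the glucose state of the cell, varied widely among the hearts of a genotype, at 527, 446 and 246 CPM in the resistant and 450, 327 and 325 CPM in the sensitive hearts. Its 95% interval ran from -0.567 to 0.273, and 19.4% of its exonic bases lie antisense to Gm15441. Txn1, cytosolic thioredoxin, was at 38.7 to 42.5 CPM in the resistant and 41.2 to 41.7 CPM in the sensitive hearts (log2 fold change 0.05, 95% interval -0.115 to 0.223). Txnrd1, the cytosolic reductase and an NRF2 target, was at 62, 66.9 and 70.5 CPM in the resistant and 77.7, 69.1 and 75.9 CPM in the sensitive hearts (log2 fold change 0.16, 95% interval -0.006 to 0.325). Txnrd2, its mitochondrial form, had a log2 fold change of 0 (95% interval -0.234 to 0.234).

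The 12 thioredoxin-domain and thioredoxin-like genes gave 10 tested, of which 0 passed the adjusted threshold by edgeR or DESeq2, 1 was higher and 2 lower at an unadjusted p under 0.05. Txnl1, a cytosolic thioredoxin-like protein, was at 63.1, 56 and 68.5 CPM in the resistant and 67.8, 73.4 and 81.5 CPM in the sensitive hearts (log2 fold change 0.25, adjusted p = 0.21). Txndc5, a disulfide isomerase of the endoplasmic reticulum that cardiac fibroblasts express, was at 43.5, 45.7 and 45.2 CPM in the resistant and 42.4, 37.3 and 36.2 CPM in the sensitive hearts (log2 fold change -0.21, adjusted p = 0.253). Txndc16 was at 25.7 to 28.6 CPM in the resistant and 20.4 to 25.4 CPM in the sensitive hearts (log2 fold change -0.22, adjusted p = 0.341). The sensitive hearts were the lower without overlap for both, and 11.9% of the exonic bases of Txndc5 lie antisense to Bmp6 and Gm31834. The 6 fibroblast markers had 4 log2 fold changes below 0 with 0 past the adjusted threshold by edgeR (2 at an unadjusted p under 0.05, 1 called by DESeq2) and summed to 794 to 895 CPM in the resistant and 795 to 881 CPM in the sensitive hearts. Their part in the Txndc5 level was not tested. Txndc17, a small thioredoxin-like protein, had a log2 fold change of 0.07 (95% interval -0.128 to 0.272).

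Glutathione S-transferases were the largest role, with 22 cytosolic and mitochondrial genes, 18 of them tested. By edgeR 0 passed the adjusted threshold, DESeq2 called 1, and 3 were higher and 1 lower at an unadjusted p under 0.05. Gsto1, an omega-class enzyme with thiol transferase activity, was at 108, 97.2 and 119 CPM in the resistant and 117, 137 and 150 CPM in the sensitive hearts. The lowest sensitive heart lay below the highest resistant one, and the log2 fold change was 0.31 (SE 0.094, adjusted p = 0.129 by edgeR and 0.038 by DESeq2). Its neighbour Gsto2, on the same strand of chromosome 19, was at 22, 22 and 16 counts in the resistant and 11, 11 and 10 counts in the sensitive hearts, without overlap (adjusted p = 0.415). The ratio of Gsto1 to Gsto2 per base was 90.2 ± 23.4 in the resistant and 194 ± 30.1 in the sensitive hearts (SD, n = 3, exact two-sided permutation p = 0.1, the smallest possible). It rests on these low counts and was not planned either.

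The mu class genes lie on chromosome 3, and their log2 fold changes were of unlike size. Gstm4 was at 9.17, 8.41 and 7.64 CPM in the resistant and 5.21, 5.79 and 5.81 CPM in the sensitive hearts, and every sensitive heart was the lower. Its log2 fold change was -0.59 (SE 0.161, adjusted p = 0.0946 by edgeR and 0.0937 by DESeq2), the second largest in size among members with an unadjusted p under 0.05. Gstm1, the most abundant transferase per length at 107 CPM per kb, was at 154, 153 and 148 CPM in the resistant and 168, 167 and 154 CPM in the sensitive hearts (log2 fold change 0.10, 95% interval -0.04 to 0.249). The interval of Gstm4, from -0.929 to -0.242, does not reach that of Gstm1. The ratio of Gstm4 to Gstm1 per base was 0.0478 ± 0.00338 in the resistant and 0.0298 ± 0.00292 in the sensitive hearts (SD, n = 3, exact two-sided permutation p = 0.1, the smallest possible), also chosen after the values were seen. No 100-base window of Gstm4 occurs in another transcript. Gstm2, Gstm5, Gstm6 and Gstm7 had log2 fold changes between -0.05 and 0.03.

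Gsta4, which conjugates the lipid aldehyde hydroxynonenal, was at 51.1, 51.7 and 55 CPM in the resistant and 57.9, 58.6 and 66.7 CPM in the sensitive hearts. The genotypes did not overlap (log2 fold change 0.21, SE 0.08, adjusted p = 0.222). Gstt2, of the theta class, was at 6.45, 7.93 and 7.39 CPM in the resistant and 10.2, 8.36 and 9.8 CPM in the sensitive hearts, also without overlap (log2 fold change 0.38, SE 0.154, adjusted p = 0.262). Gstp1 had a log2 fold change of 0.14 (95% interval -0.017 to 0.292), and 25.1% of its windows occur in Gstp2 and Gstp-ps. Gsta1, with 80.6% of its windows shared, cannot be read apart from its neighbours in the alpha class.

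Microsomal glutathione S-transferases are membrane enzymes that also reduce lipid peroxides. Mgst1 was at 38.6, 38.7 and 41.2 CPM in the resistant and 48.5, 43.9 and 44.4 CPM in the sensitive hearts, without overlap (log2 fold change 0.21, SE 0.08, adjusted p = 0.238). Mgst3, next after Prdx3 at 157 CPM per kb, was at 183, 128 and 171 CPM in the resistant and 179, 172 and 200 CPM in the sensitive hearts, which overlapped (log2 fold change 0.19, 95% interval -0.037 to 0.427).

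Per length, the order of levels after Gpx4, Prdx3 and Mgst3 was Txnip (124 CPM per kb), Prdx5 (121), Gstm1 (107), Gpx3 (95.3), Cat (89.2), Prdx1 (84.3) and Prdx2 (78.5). Gpx4 was above all other members in every heart. From Prdx3 to Prdx2 the ranges over the 6 hearts overlapped between each member and the next, as Txnip ranged from 78.9 to 169 CPM per kb, Gpx3 from 78.9 to 116 and Cat from 78.1 to 103. Within a heart, Prdx3 was above Mgst3, Prdx5 above Gstm1 and Prdx1 above Prdx2 in 6 of 6 hearts. The glutathione synthesis genes were far lower, with Gsr at 8.08, Gclm at 6.24, Gclc at 5.18 and Gss at 2.21 CPM per kb. The deposited gene length covers all exons of a gene, so a gene with long rare exons, as Sod2 (57.1 CPM per kb), is set too low.

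**Figure D3:**
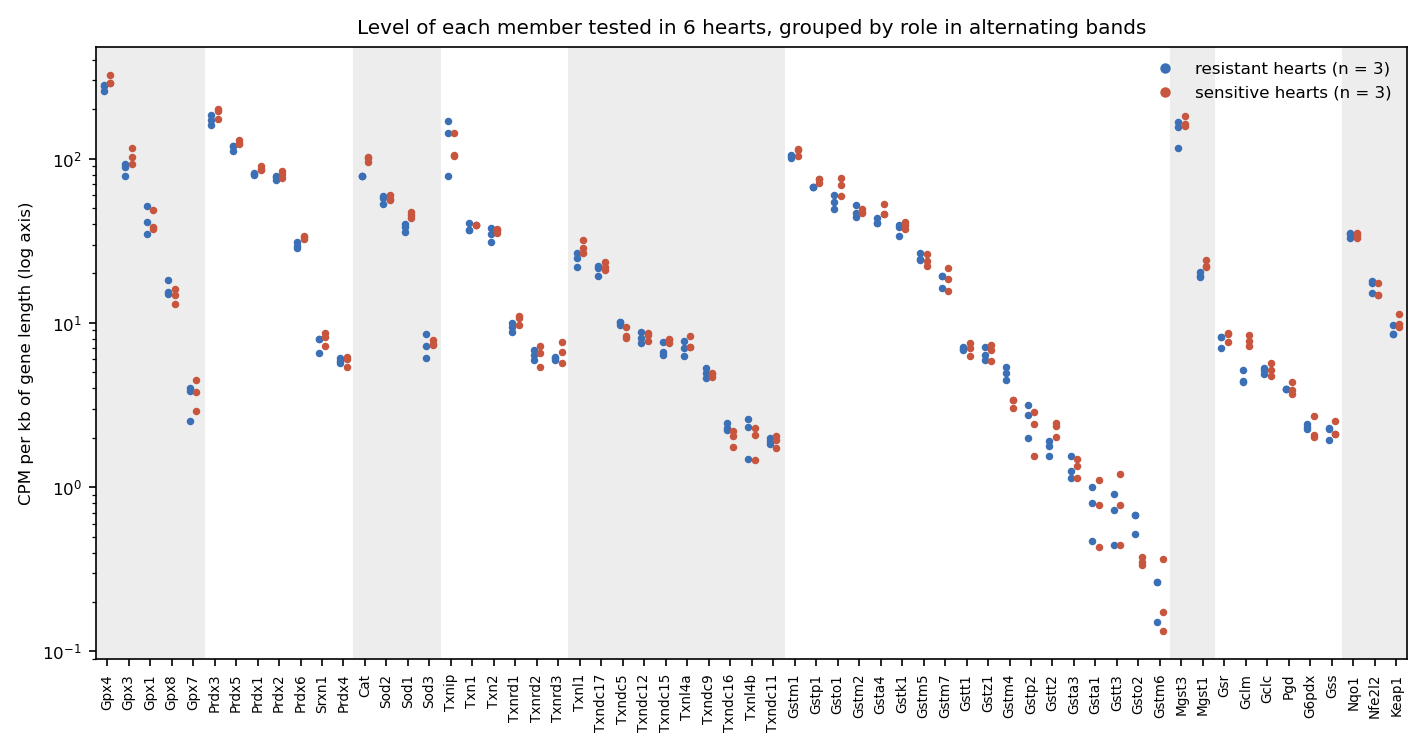
CPM per kb of gene length (y axis, log scale) of each member tested in 6 hearts, 3 resistant (blue) and 3 sensitive (red), in bands by role. Levels run from 0.132 CPM per kb for Gstm6 to 324 CPM per kb for Gpx4, and for most members the hearts of both genotypes overlap.

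The regulators themselves did not pass. Nfe2l2, the gene of NRF2, was at 58.1, 68.7 and 66.8 CPM in the resistant and 56.3, 66.3 and 56.2 CPM in the sensitive hearts (log2 fold change -0.11, 95% interval -0.305 to 0.076). Keap1 was at 40.3, 45.4 and 40.3 CPM in the resistant and 46.3, 44 and 53.2 CPM in the sensitive hearts (log2 fold change 0.19, 95% interval -0.004 to 0.38). Of the exonic bases of Keap1, 10.9% lie antisense to Gm16754. Nqo1, a quinone reductase and a common readout of NRF2, was at 54.1, 51.4 and 54.8 CPM in the resistant and 54.5, 51.1 and 53.4 CPM in the sensitive hearts. These values overlapped closely, and the 95% interval of the Nqo1 fold ran from 0.89 to 1.11. The activity of NRF2 protein was not measured in these files.

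Genes around these members were read from 9 lists with 138 genes, of which 120 were tested. By edgeR 5 of the 120 passed, all higher in the sensitive hearts, where 1.44% of all genes passed and 0.780% were higher. The log2 fold change was above 0 in 72 (60%, against 48.4% of all genes) and below 0 in 48. The median was 0.053 against -0.008 for all genes. With total count scaling the median of all genes was -0.091, and the list genes above 0 were not counted under that scaling. Of 10 NRF2 partners and repressors tested, 2 rose and 0 fell by edgeR (1 was lower at an unadjusted p under 0.05, and 0 by DESeq2). These were the small MAF proteins Mafg and Mafk, which pair with NRF2 and also with its repressor BACH1. Mafg was at 46.3, 49.7 and 44.2 CPM in the resistant and 59.9, 58.4 and 60.4 CPM in the sensitive hearts (log2 fold change 0.35, adjusted p = 0.0333). Mafk was at 42.7, 41.6 and 39.9 CPM in the resistant and 58.9, 49 and 57.8 CPM in the sensitive hearts (log2 fold change 0.42, adjusted p = 0.0283). The genotypes were apart for both. Of the 5 list genes called, 4 were matched to RefSeq, and the core searched above was upstream of 2 (Mafg and Mafk). It was upstream of 20.6% of the members matched and 11.5% of all genes. The 4 genes were picked by their calls in these same data, so their share is not a test. A part of NRF2 in their levels was not tested. Bach1 had a log2 fold change of 0.04.

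Of 20 other NRF2 target genes tested, 1 passed, Sqstm1, the autophagy receptor p62 that also binds KEAP1. It was at 333, 298 and 357 CPM in the resistant and 445, 410 and 528 CPM in the sensitive hearts, without overlap (log2 fold change 0.49, adjusted p = 0.0216). Hmox1, heme oxygenase, was at 7.54, 10.4 and 6.58 CPM in the resistant and 8.19, 8.05 and 13.9 CPM in the sensitive hearts, where mouse 381 alone was high (adjusted p = 0.577). Of the 17 oxidant-producing enzymes tested, 2 passed, the molybdenum enzymes Aox1 and Xdh, and 12 lay below 0. At an unadjusted p under 0.05, 2 were higher and 2 lower, and the hearts did not overlap in 2 higher and 2 lower. Aox1, aldehyde oxidase, was at 54.9, 44.8 and 53.2 CPM in the resistant and 82.2, 83.3 and 85.1 CPM in the sensitive hearts (log2 fold change 0.71, adjusted p = 0.000626). Xdh, xanthine dehydrogenase, was at 101, 99.4 and 93.7 CPM in the resistant and 125, 154 and 117 CPM in the sensitive hearts (log2 fold change 0.43, adjusted p = 0.0319). Of the NADPH oxidase genes, Cybb, the phagocyte form, differed by -0.37 on the log2 scale (adjusted p = 0.474) and Nox4 by 0.03 (adjusted p = 0.984).

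Leaving out 1 heart at a time, Aox1 passed in 6 of 6 fits, Sqstm1 in 3, and Mafg, Mafk and Xdh in 1 each. With total count scaling Aox1 and Sqstm1 passed, and Mafg, Mafk and Xdh had adjusted p of 0.137, 0.094 and 0.118. Macrophage markers, 6 tested, all had log2 fold changes below 0 (summed 303 to 477 CPM resistant, 272 to 329 CPM sensitive) with 0 past the adjusted threshold by edgeR, 2 at an unadjusted p under 0.05 and 2 called by DESeq2. Their part in the Cybb level was not tested.

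Among 17 genes of NADPH supply, 0 passed the adjusted threshold by edgeR, 4 were higher and 1 lower at an unadjusted p under 0.05, and DESeq2 called 1. That gene was Me1, cytosolic malic enzyme and an NRF2 target, at 141, 153 and 144 CPM in the resistant and 180, 180 and 170 CPM in the sensitive hearts (log2 fold change 0.27, adjusted p = 0.0623 by edgeR and 0.00372 by DESeq2). Per length, Idh2, which makes NADPH in mitochondria, was at 637 CPM per kb (538 to 781), above every member. Nnt, the mitochondrial transhydrogenase, which is disrupted in some C57BL/6 substrains, was at 0.383 CPM per kb (0.289 to 0.571), with 41 to 80 counts per heart and overlapping genotypes. Slc7a11, the cystine transporter, had 0 to 8 counts per heart and was not tested.

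Among the genes tested in the other lists, the counts past the adjusted threshold by edgeR and by DESeq2 were 0 of 19 glutathione accessory enzymes (7 at an unadjusted p under 0.05, 4 higher and 3 lower), 0 of 9 cystine and precursor genes (0), 0 of 21 selenoprotein genes (0), 0 of 4 methionine sulfoxide reductases (1) and 0 of 4 metallothionein and metal-binding genes (0). Of all genes, 14.5% were at an unadjusted p under 0.05. The lists' median log2 fold changes were 0.114, 0.1, 0.104, 0.075 and 0.064. The plot of the lists sets them beside the members.

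**Figure D4:**
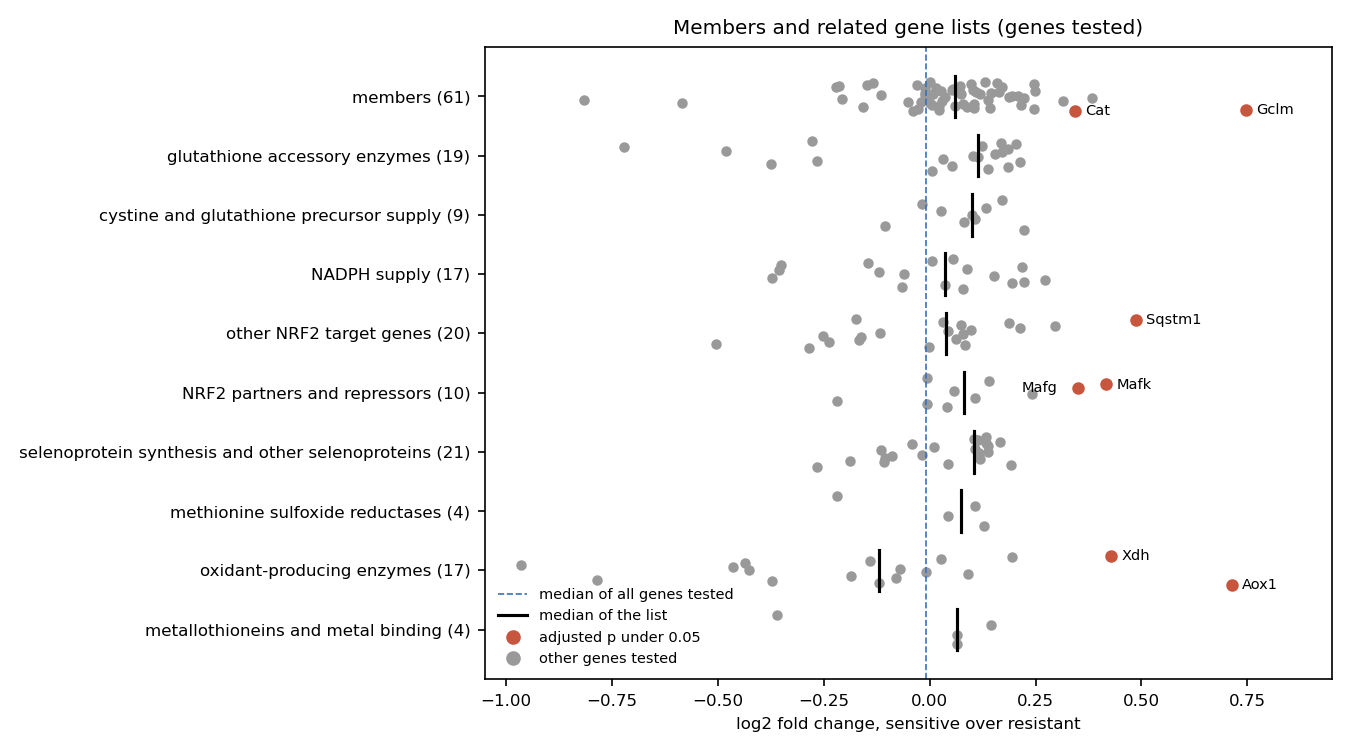
Log2 fold change (x axis, sensitive over resistant) of the members and of 9 related lists, with 1 point per gene tested, the list's median as a black bar and the median of all genes tested as a dashed line. The 7 red points are Gclm, Cat, Sqstm1, Mafg, Mafk, Xdh and Aox1, all above 0, and the median of the oxidant-producing enzymes (-0.12) lies below the dashed line (-0.008).

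The same values can be read heart by heart. Relative to the mean of the resistant hearts, Gclm stood 0.64, 0.74 and 0.86 higher on the log2 CPM scale in mice 379, 380 and 381, whereas Nqo1 stood at 0.03, -0.06 and 0 and Gclc at 0.01, -0.11 and 0.16. Cat stood 0.36, 0.28 and 0.39 higher, and Mafg 0.36, 0.32 and 0.37 higher. The map of log2 levels by heart shows 19 such genes.

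**Figure D5:**
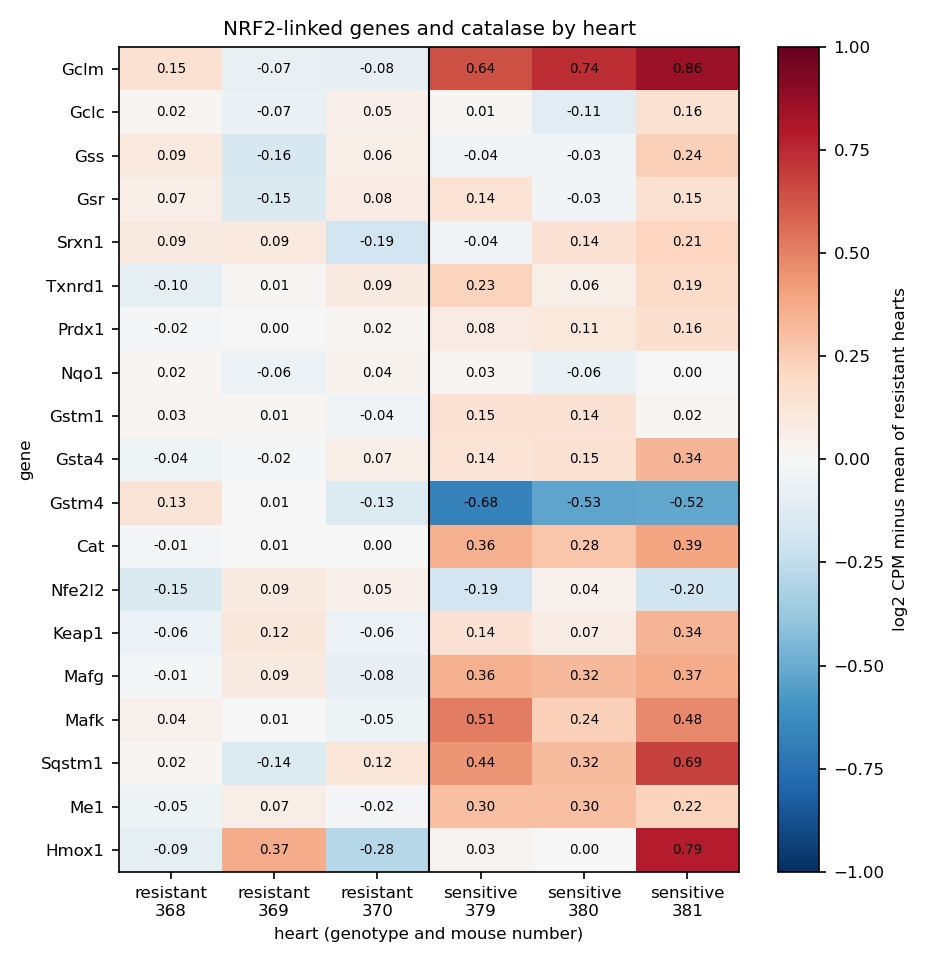
Log2 CPM of 19 genes (rows) in each heart (columns, genotype and mouse number), as the difference from the mean of the 3 resistant hearts, written in each cell and coloured from -1 (blue) to 1 (red). Gclm is the reddest row in the sensitive hearts (0.64 to 0.86), Gstm4 is blue there (-0.68 to -0.52), and Nqo1 stays within -0.06 to 0.04 in all 6 hearts.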

How the data were processed

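RNA was extracted from whole hearts and sequenced on a NovaSeq by a company, which did the quality control, mapping and counting. The submitters' processing notes name fastp, STAR, featureCounts and mm10. Versions, annotation and the strand setting are not given in the sources used here. The authors deposited raw counts per gene and a gene length, in bases, which counts all exons. The authors' own DESeq2 comparison (means, fold changes, standard errors, statistics and p-values) was not used.

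The members and lists were chosen with earlier results of these data known. Counts were tested in R 4.3.3 with edgeR 4.0.16 (quasi-likelihood, TMM, filterByExpr with minimum count 10 and minimum total 15, Benjamini-Hochberg over all genes tested, threshold 0.05, no covariate). The SE was the log2 fold change divided by the root of F. Log2 CPM used a prior count of 2. DESeq2 1.42.0 is the tool named by the study and was an alternative. P-values measure the spread between hearts of separate mice, 3 per genotype. The mean chi-square between replicate libraries was 6.85 to 13.1 per gene, more than counting error between runs of a single library would give. That the hearts came from separate mice rests on the labels. Intervals on counts of 0 cover counting error only.

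Named genes were members at an unadjusted p under 0.05, the 2 highest per length in each of 9 roles, the 11 genes given by full symbol, and list genes at an adjusted p under 0.05. Gpx1, Prdx1, Prdx2, Sod3, Txnrd1, Txnrd2, Gsto2, Gsta1, other Gstm genes, Me1, Idh2, Nnt, Slc7a11, Hmox1, Bach1, Cybb and Nox4 were added after their values were seen. All 72 members are in GENCODE M21, 66 at the same coordinates, and 8 had over 10% of their 100-base windows in another gene's transcript.

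Alternatives were DESeq2, upper-quartile or RLE factors, a minimum of 10 counts in all hearts or no filter, removal of mitochondrially encoded and globin genes, a robust prior, an adjusted p under 0.1 and the removal of each heart. Total count scaling was added after seeing the data. The scripts were tested on simulated data.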

Additional observations from a re-analysis of the deposited data

How the results depend on the processing

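No paired analysis was possible because the replicate numbers only name the hearts. Over 518 comparisons of 37 named genes with their alternatives, 469 kept direction and side of the threshold, 26 lost the call, 3 gained it and 20 changed sign. The members called (2) became 4 with DESeq2, 1 with total count scaling and 1 to 2 when a heart was left out. All genes called (214) became 403 with DESeq2, 618 with no filter, 402 at an adjusted p under 0.1 and 80 to 158 without a heart. List genes called (5) became 8 with no filter, 2 with total count scaling and 1 to 3 without a heart. Members above 0 (43) became 26 with total count scaling and 36 to 48 without a heart. The members' median over that of all genes (0.068) was 0.052 to 0.107 without a heart. Signs that changed belonged to uncalled members. With total count scaling the log2 fold changes were Sod2 -0.056, Txn1 -0.029, Txndc17 -0.009, Gclc -0.06, Gss -0.023 and Pgd -0.075, and with upper-quartile factors Pgd was -0.006. Leaving out a heart gave -0.019 to 0.062 for Sod2, -0.402 to 0.087 for Txnip, -0.181 to 0.044 for G6pdx, -0.047 to 0.09 for Gclc, -0.035 to 0.112 for Gss, -0.061 to 0.06 for Pgd and -0.035 to 0.019 for Nqo1. The cause was not tested. With 3 hearts per genotype, members such as Txnip (95% interval -0.567 to 0.273) could differ by more than Cat and not be called.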
